A study of Mus musculus with 33 samples.

Results

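Striatal projection neuron genes were followed in RNA-Seq of frontal cortex from mouse offspring, as 8 genes chosen by name among the 23366 genes of each deposited count table. They were the receptor genes Drd2 and Adora2a, the neuropeptide precursor genes Penk, Tac1 and Pdyn, and the signalling genes Ppp1r1b, Rgs9 and Pde10a. All 8 were listed in both tables and all passed the filter on low counts, among 15158 genes tested in females and 15293 in males. C57BL/6 dams, and afterwards the dams together with their pups, inhaled the aerosol of an e-cigarette whose liquid held nicotine (13 to 16 mg/mL), the aerosol of a nicotine-free liquid, or filtered air alone. The offspring were sampled at about 1 month of age. Apart from the pentobarbital given for euthanasia, the study names no further genetic or drug treatment in any group. In females 6 air, 5 nicotine and 5 no nicotine libraries were compared, and among libraries labelled male 6 air, 6 nicotine and 5 no nicotine libraries. Each library came from an offspring of a separate litter, as the methods of the study state. The sexes were sequenced in separate runs and counted in separate tables, so sex and sequencing run cannot be told apart and levels were compared within a table.

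Projection neurons make up most neurons of the striatum and send their axons along a direct and an indirect pathway to the basal ganglia output nuclei. Neurons of the indirect pathway are known for the dopamine D2 receptor, the adenosine A2a receptor and enkephalin, those of the direct pathway for the dopamine D1 receptor, substance P and dynorphin, and both for a dense cAMP signalling machinery that includes DARPP-32. Some cortical cells also express several of these genes, and a bulk library does not say which cells its reads came from, so fewer cells of a type and less RNA per cell cannot be told apart.

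Total counts ran from 19150562 to 27513174 per library in females and from 17845672 to 24787955 in libraries labelled male. In 16 of the 17 libraries labelled male the X and Y transcripts followed the label. The exception, labelled male nicotine replicate 21, held 215 CPM (counts per 1000000 counts of the library, scaled by TMM) of Xist, which silences an X chromosome in female cells, and 1 count over the Y-linked genes. It was kept under its label, and for the 8 genes the comparisons whose fit uses it were also run without it. Male results of the other dopamine receptors and of the gene lists are given only with it. Genes characteristic of cortical glutamatergic neurons were present in every library, with a summed level of 4742 to 12952 CPM over 16 genes, beside 823 to 3908 CPM over the 8 striatal projection neuron genes.

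The genes lie on 7 chromosomes of the mm9 assembly, the build the authors mapped to, and all are protein coding. Drd2 lies at chr9:49148732-49216282 and Adora2a at chr10:74779688-74797533, both on the plus strand. Penk (chr4:4060678-4065966) and Pdyn (chr2:129512301-129525580) lie on the minus strand, and Tac1 (chr6:7505071-7512973) on the plus strand. Ppp1r1b at chr11:98209718-98219110 and Pde10a at chr17:8718237-9179513 are on the plus strand, and Rgs9 at chr11:109086669-109159443 is on the minus strand. Genes on the opposite strand share 460 exonic bases with Ppp1r1b (1700003D09Rik) and 233 with Penk (A830012C17Rik), and whether the counting used strand is not given in the sources used here. Of the windows of 50 bases in Rgs9 transcripts, 1.23% also occur in other genes, and none did in transcripts of the other 7.

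RefSeq promoter windows on GRCm38.p6, from 250 bases before to 50 bases after a start, were found for 5 of the 8 genes, namely Drd2, Tac1, Pdyn, Rgs9 and Pde10a. The windows were searched on both strands for a cAMP response element half-site (TGACG or CGTCA), the E-box CACGTG and the TATA box TATAAA, since the genes moved together across libraries as described further on. The 250 bases before the start of Tac1 (chr6:7554811-7555060, plus strand), Rgs9 (chr11:109298182-109298431, minus strand) and the first start of Pdyn (chr2:129699939-129700188, minus strand) are shown, these being the called genes with a window, with matches in capitals.
Tac1: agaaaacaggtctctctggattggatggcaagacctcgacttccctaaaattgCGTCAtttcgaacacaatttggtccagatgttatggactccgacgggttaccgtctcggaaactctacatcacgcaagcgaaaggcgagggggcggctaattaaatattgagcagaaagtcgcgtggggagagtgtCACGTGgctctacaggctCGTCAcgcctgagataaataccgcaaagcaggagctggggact
Rgs9: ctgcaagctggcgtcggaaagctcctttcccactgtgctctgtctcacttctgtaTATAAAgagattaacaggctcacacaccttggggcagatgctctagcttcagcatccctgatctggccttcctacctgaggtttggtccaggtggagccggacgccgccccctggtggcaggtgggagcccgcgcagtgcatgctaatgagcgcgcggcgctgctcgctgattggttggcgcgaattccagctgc
Pdyn: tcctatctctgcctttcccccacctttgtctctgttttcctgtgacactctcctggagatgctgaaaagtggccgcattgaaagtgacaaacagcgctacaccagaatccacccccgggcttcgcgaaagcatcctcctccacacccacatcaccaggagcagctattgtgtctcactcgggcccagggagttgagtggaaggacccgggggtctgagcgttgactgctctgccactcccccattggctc
The Tac1 window held 2 half-sites, starting at -197 and -43 from the start, and 1 E-box at -61. The Rgs9 window held 1 TATA box at -195. No match to the 3 motifs was found in the windows of Drd2, Pdyn or Pde10a. Among 32851 promoter windows of the same length, 20.8% held the half-site, 7.15% the E-box and 13.6% the TATA box. No motif was shared by the genes that have a window, and GC content also ranged widely, from 44.3% in the second Pdyn window to 71.3% in the first Pde10a window (median of all windows 52.7%).

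Levels per kilobase of exon placed Penk, the precursor of enkephalin, first in air exposed controls, at 252 ± 94.9 CPM per kb (SD, n = 6) in females and 289 ± 67.5 (SD, n = 6) in males. Ppp1r1b, which encodes the phosphatase inhibitor DARPP-32, followed with 128 ± 36.3 and 142 ± 28.9 CPM per kb, then Tac1, the precursor of substance P, with 61.1 ± 18.3 and 69.1 ± 13.9 CPM per kb (SD, n = 6 each). Adora2a had 39.1 ± 16.9 and 43.1 ± 11.3 CPM per kb and Pde10a, a phosphodiesterase of cAMP and cGMP, 27.4 ± 9.92 and 30.7 ± 8.05. Drd2, Rgs9 and the dynorphin precursor Pdyn were lowest, at 11.2, 10.6 and 7.14 CPM per kb in females and 12.4, 15.5 and 7.52 in males. The ranges of neighbours in this order overlapped across female air libraries at each step. In males the lowest Penk library was above the highest Ppp1r1b library (214 against 181 CPM per kb), the lowest Ppp1r1b library above the highest Tac1 library (113 against 93.0) and the lowest Pde10a library above the highest Rgs9 library (23.5 against 20.1), and the other neighbours overlapped.

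**Figure D1:**
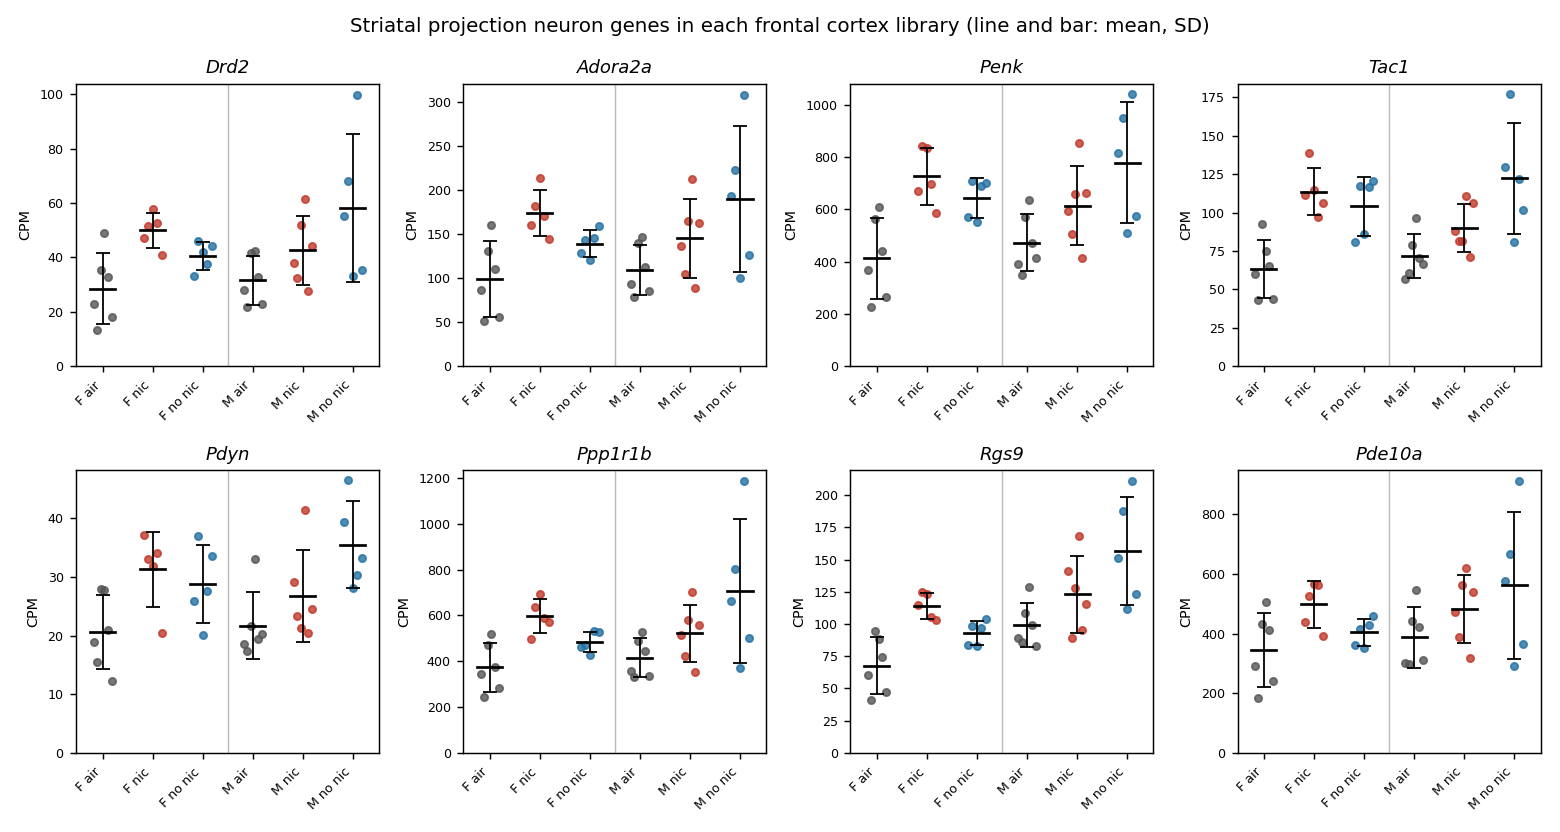
CPM of each striatal projection neuron gene in each library, with female (F) and male (M) groups side by side, 1 point per library, a line at the group mean and a bar of 1 SD. The female air libraries spread widely. For Drd2, Adora2a and Pde10a the highest of them is above all 5 female no nicotine libraries. For 7 of the 8 genes, Pdyn being the exception, the range in CPM is widest in the male no nicotine group.

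All 8 genes had a higher mean in both exposed groups than in air in both sexes, by 0.53 to 0.84 on the log2 scale in females with nicotine, 0.23 to 0.72 in females without nicotine, 0.30 to 0.44 in males with nicotine and 0.54 to 0.89 in males without nicotine. In females with nicotine Tac1, Rgs9 and Ppp1r1b rose past the threshold (edgeR quasi-likelihood test, Benjamini-Hochberg adjusted p below 0.01 over all genes tested), which is 3 of 8 where 1.98% of all genes tested were called higher. In females without nicotine 1 of 8 rose (Tac1), where 5.03% of genes were called higher, and in males without nicotine 3 of 8 rose (Tac1, Pdyn and Rgs9), where 6.15% were. In males with nicotine 0 of 8 passed, and 0% of genes tested did. These counts rest on single libraries: leaving out 1 library at a time gave 0 to 6 of 8 in females with nicotine, 0 to 1 in females without and 1 to 6 in males without, and fits of only the 2 groups compared gave 1, 0 and 3. Without male nicotine replicate 21, which enters the fit of the male table, 4 of 8 were called in males without nicotine, Penk being added. The median log2 fold change over the 8 genes was 0.78, 0.48, 0.33 and 0.74 in that order of groups (females with and without nicotine, then males with and without), where the median over all genes tested lay between 0.00406 and 0.0162. Both exposed groups of a sex were set against the same air libraries, so their changes are not independent of each other.

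Drd2, the dopamine D2 receptor that inhibits adenylyl cyclase, ran from 13.1 to 49.0 CPM in the 6 female air libraries (median 27.7). The 5 female nicotine libraries had 40.9, 47.0, 51.4, 52.6 and 57.8 CPM and the 5 no nicotine libraries 33.1, 37.8, 42.0, 44.1 and 45.9 CPM. Every female exposed library was above 4 or more of the 6 air libraries, and both exposed groups overlapped the air group. The log2 fold change against air was 0.80 (SE 0.233, adjusted p = 0.0315) with nicotine and 0.50 (adjusted p = 0.127) without. In males Drd2 ran from 21.7 to 42.5 CPM in air (median 30.3) and from 27.5 to 61.3 CPM with nicotine (median 41.0), and the 5 no nicotine libraries had 33.1, 35.4, 55.4, 68.0 and 99.6 CPM. The highest of these libraries had 3.01 times the level of the lowest, and the log2 fold change of 0.89, the largest of the 8 genes in that comparison, had a 95% interval of 0.33 to 1.45 (adjusted p = 0.0205), and it was 0.44 (adjusted p = 0.473) with nicotine.

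Adora2a, the adenosine A2a receptor that opposes D2 signalling in the same neurons, followed the pattern of Drd2 at higher levels. It ran from 50.9 to 160 CPM in female air libraries (median 98.4), from 144 to 214 with nicotine (median 170) and from 121 to 158 without (median 143). In males the ranges were 78.5 to 146 CPM in air (median 103), 89.1 to 212 with nicotine (median 150) and 99.4 to 308 without (median 192). The groups overlapped in each comparison, and none passed, with log2 fold changes of 0.81 (adjusted p = 0.0258) and 0.49 (0.126) in females with and without nicotine, and 0.41 (0.488) and 0.80 (0.0320) in males.

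Tac1 was called in 3 of the 4 comparisons with air, more than any other of the 8 genes. In the 6 female air libraries it ran from 43.3 to 92.4 CPM (median 62.6), while the nicotine libraries had 97.4, 106, 112, 115 and 139 CPM. No female nicotine library overlapped the air range, which was true of 2 of the 8 genes (Tac1 and Rgs9) and of 3.07% of all genes tested in the higher direction. The log2 fold change was 0.84 (SE 0.172, 95% interval 0.48 to 1.21, adjusted p = 0.00517), a 1.80-fold difference. Without nicotine the female libraries had 80.5, 86.2, 117, 117 and 121 CPM, of which 3 of 5 were above every air library, with a log2 fold change of 0.72 (SE 0.172, adjusted p = 0.00620). The call with nicotine held in 10 of 16 fits that each left out 1 library of the table, and that without nicotine in 9 of 16.

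In males Tac1 ran from 56.6 to 96.2 CPM in air (median 68.5) and from 70.8 to 111 with nicotine (median 84.8), and the no nicotine libraries had 80.8, 102, 122, 130 and 177 CPM. Of the latter, 4 of 5 were above every air library. Tac1 rose by 0.78 on the log2 scale without nicotine (SE 0.169, 95% interval 0.42 to 1.13, adjusted p = 0.00259), and this call held in 17 of 17 fits that left out a library. With nicotine the difference was 0.33 (95% interval -0.01 to 0.67, adjusted p = 0.364).

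Penk had the highest level of the 8 genes and passed in no comparison with edgeR. It ran from 227 to 609 CPM in female air libraries (median 404), and the nicotine libraries had 587, 671, 698, 835 and 841 CPM, 4 of 5 above every air library. The no nicotine libraries lay between 552 and 708 CPM (median 689). The log2 fold changes with and without nicotine were 0.82 (adjusted p = 0.0146) and 0.64 (adjusted p = 0.0278) with edgeR, while DESeq2 called Penk with nicotine (adjusted p = 0.00404). In males Penk ran from 350 to 634 CPM in air (median 444), from 414 to 852 with nicotine (median 626), and had 508, 574, 817, 951 and 1040 CPM without nicotine. The male difference without nicotine was 0.72 (adjusted p = 0.0132 with edgeR, 0.00946 with DESeq2), and with nicotine 0.38 (adjusted p = 0.381).

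Pdyn was the lowest of the 8 genes per kilobase and followed the others least closely. In female air libraries it ran from 12.3 to 28.1 CPM (median 20.0), in nicotine libraries from 20.5 to 37.2 (median 33.1) and in no nicotine libraries from 20.0 to 37.1 (median 27.7), which overlapped. The log2 fold changes of 0.60 (adjusted p = 0.0619) and 0.48 (adjusted p = 0.0970) did not pass. In males 5 of the 6 air libraries lay between 17.3 and 21.6 CPM and replicate 37 stood apart at 33.04 CPM. The no nicotine libraries had 28.1, 30.3, 33.2, 39.5 and 46.5 CPM, all above those 5 air libraries and 3 of 5 above replicate 37, and Pdyn rose by 0.72 on the log2 scale (SE 0.186, adjusted p = 0.00863). That call held in 6 of 17 fits that left out a library. With nicotine Pdyn ran from 20.4 to 41.4 CPM (median 24.0) and differed from air by 0.30 (adjusted p = 0.477).

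Ppp1r1b was called in females with nicotine. It ran from 246 to 520 CPM in female air libraries (median 359), and the nicotine libraries had 495, 570, 589, 639 and 695 CPM. All but the lowest of these were above every air library, and the log2 fold change was 0.68 (SE 0.152, adjusted p = 0.00880), a call that held in 3 of 16 fits that left out a library. The no nicotine libraries lay between 429 and 532 CPM (median 470), with a difference of 0.37 (adjusted p = 0.0825). In males the ranges were 332 to 529 CPM in air (median 401) and 354 to 705 with nicotine (median 536), and the no nicotine libraries had 371, 503, 663, 802 and 1187 CPM. The difference without nicotine, 0.76, was as large as in called genes but had a wider interval (0.28 to 1.25, adjusted p = 0.0211), and it was 0.49 without no nicotine replicate 5, the library at 1187 CPM.

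Rgs9, which speeds the shut-off of G proteins coupled to D2 receptors, ran from 40.9 to 94.97 CPM in female air libraries (median 67.5), and the nicotine libraries had 103, 105, 114, 124 and 125 CPM. These were the least scattered values of any of the 8 genes in any group, with a coefficient of variation of 8.78%. The groups did not overlap and Rgs9 rose by 0.75 on the log2 scale (SE 0.166, adjusted p = 0.00838), a call that held in 4 of 16 fits that left out a library. Without nicotine it lay between 83.2 and 104 CPM (median 97.0; difference 0.46, adjusted p = 0.0525). In males it ran from 83.3 to 128 CPM in air (median 94.2) and from 88.9 to 168 with nicotine (median 122), and had 112, 123, 151, 187 and 211 CPM without nicotine. Rgs9 rose by 0.66 without nicotine (SE 0.173, adjusted p = 0.00890), a call that held in 6 of 17 such fits, and differed by 0.31 with nicotine (adjusted p = 0.409).

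Pde10a had the smallest difference of the 8 genes in 3 of the 4 comparisons with air. It ran from 186 to 508 CPM in female air libraries (median 353), from 393 to 566 with nicotine (median 527) and from 353 to 460 without (median 416). In males it ran from 297 to 548 CPM in air (median 368), from 317 to 619 with nicotine (median 505) and from 292 to 911 without (median 576). The lowest male no nicotine library was below every air library, and no difference passed, with log2 fold changes of 0.53 (adjusted p = 0.0894), 0.23 (0.446), 0.32 (0.586) and 0.54 (0.121) in females with and without nicotine and males with and without nicotine. The 0.23 became 0.10 without female air replicate 2 and 0.36 without replicate 4. The 0.54 became 0.30 without male no nicotine replicate 5.

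**Figure D2:**
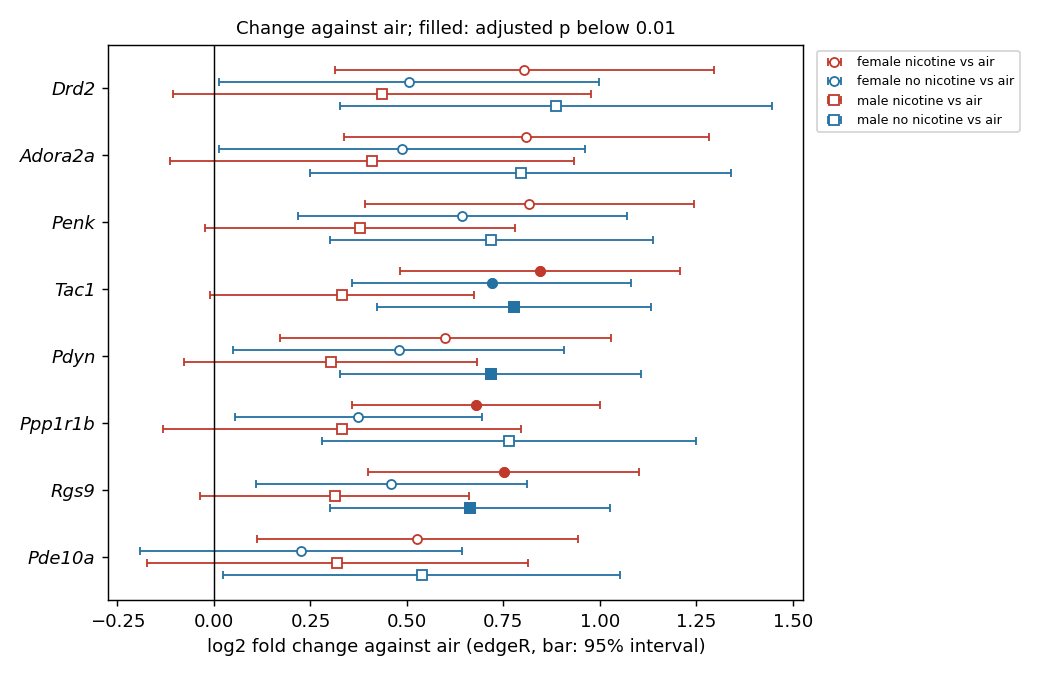
Log2 fold change against air of the 8 genes (rows) from edgeR, with 95% intervals, circles for females, squares for males, red for nicotine and blue for no nicotine, and filled symbols for an adjusted p below 0.01. All 32 estimates lie above 0, and the 7 filled ones belong to Tac1, Pdyn, Ppp1r1b and Rgs9.

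Libraries of the same group differed from each other in all 8 genes at once. In the female air group, replicate 2 was lowest for 7 genes and replicate 6 for the other, and replicates 3 and 4 were highest for all, with a highest to lowest ratio of 2.12 for Ppp1r1b up to 3.73 for Drd2. In males, air replicate 37 and nicotine replicate 19 were the highest of their group for 8 of 8 genes, and no nicotine replicate 4 the lowest of its group for 8 of 8. No nicotine replicate 5 was the highest for 6 genes and replicate 3 for Tac1 and Pdyn. Averaged over the 8 genes, the male no nicotine libraries stood 0.06, 0.32, 0.78, 1.06 and 1.20 above the air mean on the log2 scale, in ascending order.

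**Figure D3:**
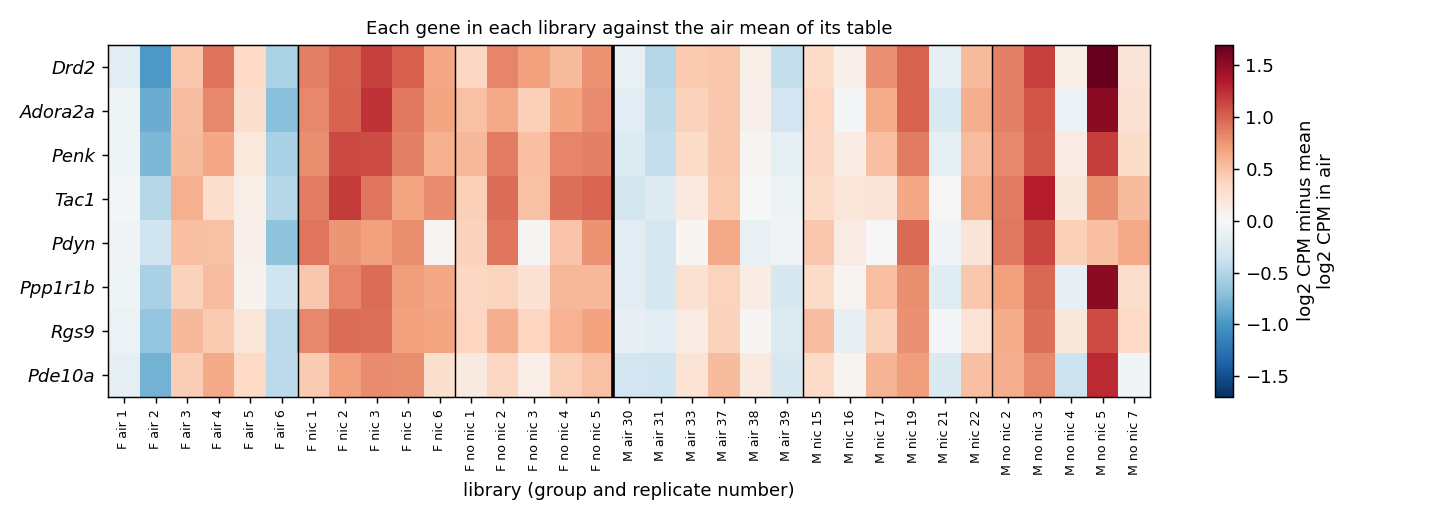
Each gene (rows) in each library (columns) as log2 CPM minus the mean log2 CPM of the air libraries of the same table, from blue (lower) over white to red (higher). Whole columns share a colour, such as the low female air replicates 2 and 6 and the high male no nicotine replicates 3 and 5.

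The spread within groups was large for these genes. The within-group SD of log2 CPM was 0.29 to 0.46 in females and 0.32 to 0.50 in males, against a median of 0.10 in each table over genes at 10 CPM or more, and 0.61 to 3.49% of those genes had a larger SD. After centring on group means, the correlation of a gene with the mean of the other 7 ran from r = 0.79 for Pdyn to 0.99 for Penk over 16 female libraries, and from 0.63 for Pdyn to 0.99 for Penk over 17 male libraries. These values describe libraries that all genes share and are given without a p. The ratio of Penk to Tac1, markers of the indirect and the direct pathway, had medians of 6.12, 6.05 and 6.04 in female air, nicotine and no nicotine libraries and 6.65, 6.48 and 6.28 in males, on the CPM scale. The ratio of Penk to Pdyn had medians of 20.5, 25.4 and 21.98 in females and 20.8, 21.1 and 20.4 in males, and that of Drd2 to Drd1a 0.340, 0.385 and 0.354 in females and 0.371, 0.372 and 0.414 in males. For all 3 ratios the ranges of exposed and air libraries overlapped. Male no nicotine replicate 5 was apart from its group, with a ratio of Adora2a to Tac1 of 2.52 against a group median of 1.25.

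The genes outside the 8 whose centred levels most resembled the mean of the 8, by the lower of the r values in the 2 tables among 13712 genes, included Drd1a (0.98), Pde1b (0.97), Adcy5 (0.96), Gpr6 (0.96), Sh3rf2 (0.93), Ankrd63 (0.93) and Gnal (0.93), again over 16 and 17 libraries and with no p. Of those named, Drd1a, Pde1b, Adcy5, Gpr6 and Gnal are on a list of 28 other genes of striatal projection neurons. Drd1a is the D1 receptor of the direct pathway, Adcy5 and Gnal are the adenylyl cyclase and the stimulatory G protein alpha subunit that it signals through, and Pde1b is a phosphodiesterase.

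No difference between the aerosols with and without nicotine passed the threshold for any of the 8 genes. In females all 8 genes were higher with nicotine than without, by 0.12 (Pdyn) to 0.32 (Adora2a) on the log2 scale, with adjusted p of 0.609 to 0.903. edgeR and DESeq2 each called 0 genes there (0% of those tested), although 1267 genes (8.36%) had an unadjusted p below 0.05 with edgeR, none of the 8 among them. For Tac1 the 95% interval was -0.25 to 0.50 and for Drd2 -0.21 to 0.81. In males all 8 were lower with nicotine than without, from -0.22 (Pde10a) to -0.45 (Drd2), with adjusted p of 0.142 to 0.675, where edgeR called 0 of the 8 and 0.0262% of all genes lower (0.222% higher), and DESeq2 also called none of the 8. Tac1 (-0.44, 95% interval -0.80 to -0.09) and Pdyn (-0.41, 95% interval -0.80 to -0.03) had an unadjusted p of 0.0166 and 0.0374, which makes 2 of 8 below 0.05 where 3071 of all genes (20.1%) were. Without male no nicotine replicate 5, Drd2, Adora2a and Ppp1r1b differed by -0.17, -0.14 and -0.16, and Pde10a by 0.0249, the other way. Without male nicotine replicate 21, whose X and Y transcripts did not follow its label, the differences from no nicotine were -0.12 to -0.38.

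In males with nicotine none of the 8 genes had an unadjusted p below 0.05 against air, and DESeq2 also called none of them. Over all genes edgeR called 0, with 2203 (14.4%) at an unadjusted p below 0.05, and DESeq2 called 159. Replicate 21 was the lowest nicotine library for 7 of the 8 genes, and without it the log2 fold changes against air were 0.37 to 0.53 with adjusted p of 0.281 to 0.476. No gene of the 8 was separated from air (0.804% of genes tested were, in the higher direction), and neither no nicotine group was separated from air for any of them (background 4.4% in the female table and 5.48% in the male table).

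Whether the sexes differed in their response to each aerosol was asked with an interaction term over all 6 groups and 15105 genes. With nicotine the change was larger in females for all 8 genes, by 0.21 (Pde10a) to 0.52 (Tac1) on the log2 scale, with adjusted p of 0.762 to 0.957, and Tac1 alone had an unadjusted p below 0.05 (0.0465). Without male nicotine replicate 21, the library that did not follow its label, these differences were 0.12 (Pde10a) to 0.46 (Tac1), with adjusted p of 0.836 to 0.984. Without nicotine it was smaller in females by -0.05 (Tac1) to -0.38 (Ppp1r1b), with adjusted p of 0.950 to 0.997. Tac1 and Penk changed sign in 5 of 33 fits each that left out a library. Without male no nicotine replicate 5 the difference was -0.10 for Drd2 and -0.11 for Ppp1r1b. In that fit it was -0.06 for Adora2a, -0.06 for Pde10a and -0.07 for Rgs9. edgeR called 0 genes of all tested for either difference (0%), with 978 and 742 genes at an unadjusted p below 0.05, and DESeq2 called 1 and 0.

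Among the other dopamine receptors, Drd1a had the highest level per kilobase in air, 22.9 CPM per kb in females and 24.1 in males, above Drd5 (1.27 and 1.17), Drd3 (1.07 and 1.11) and Drd4 (0.147 and 0.0932). Drd1a did not pass against air in any group, with log2 fold changes of 0.65 (adjusted p = 0.0361) and 0.45 (0.0996) in females with and without nicotine and 0.38 (0.407) and 0.68 (0.0237) in males. Drd5, the D5 receptor, rose in females with (0.92, adjusted p = 0.00344) and without nicotine (0.91, adjusted p = 0.00180) and in males without nicotine (0.93, adjusted p = 0.000130). It differed by 0.67 (adjusted p = 0.0416) in males with nicotine, and 1386 of its exonic bases are shared with a gene on the opposite strand. Drd3, the D3 receptor, rose in males without nicotine (0.97, adjusted p = 0.00263) and had 0.74 (0.0818), 0.86 (0.0256) and 0.81 (0.0885) in females with and without nicotine and males with nicotine. Drd4 gave 2 to 14 counts per library, with -0.13 (0.818) and -0.64 (0.159) in females, and was not tested in males.

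The other genes of the striatal and dopamine pathways were read as lists, given as counts called in females with nicotine, females without, males with and males without. Over all genes tested, 1.98%, 5.03%, 0% and 6.15% were called higher and 2.32%, 7.03%, 0% and 7.47% lower in these comparisons. Every list count in this and the following paragraphs is to be read against those shares. Of the 28 other striatal projection neuron genes, 5, 4, 0 and 6 were called higher and none lower, with a median log2 fold change of 0.46, 0.22, 0.19 and 0.47. Isl1, Foxp2 and Six3, transcription factors of developing striatal neurons, were called in both sexes without nicotine and also in females with nicotine. Of 11 genes for dopamine synthesis, transport and breakdown, 1, 2, 0 and 2 were called higher and none lower. Ddc, which encodes the enzyme that makes dopamine from L-DOPA, was the gene called in both sexes without nicotine.

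Of 29 genes for G protein, cAMP and phosphatase signalling, 28 were tested, with 1, 1, 0 and 2 called higher and 1, 6, 0 and 2 called lower, shares that apart from the 6 lie near those over all genes. In both sexes without nicotine, Prkaca, the catalytic subunit of protein kinase A, rose, while Prkar1b, a regulatory subunit, and Cdk5r1, the activator of Cdk5, fell. Peptide receptors and processing enzymes (12 of 13 tested) gave 2, 3, 0 and 2 higher and 1, 1, 0 and 1 lower. The tachykinin receptor genes Tacr1 and Tacr3, of which Tacr1 encodes the receptor for substance P, were called higher and Pcsk2, a convertase that cuts peptide precursors, lower in both sexes without nicotine. Of 9 adenosine signalling genes, 1, 1, 0 and 1 were called higher and 0, 1, 0 and 0 lower, and the nucleoside transporter gene Slc29a1 was called higher in both sexes without nicotine.

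Genes on lists for other cell types and neighbouring regions were also called against air, in numbers that differed between lists. None was called in males with nicotine, where 0% of all genes tested were. All 16 genes of cortical glutamatergic neurons had a negative log2 fold change in each comparison with air, and 3, 14, 0 and 12 were called lower in females with and without nicotine and males with and without, where 2.32%, 7.03%, 0% and 7.47% of all genes tested were. Their summed level was 9909 to 12952 CPM in female air libraries, 6388 to 9918 with nicotine and 4851 to 9317 without, and in males 8914 to 10405, 7474 to 8549 and 4742 to 8090 CPM. Those called in both sexes without nicotine included Tbr1, Slc17a7, Neurod6, Neurod2, Emx1, Cux2, Rorb, Rasgrf2, Bhlhe22, Nptx1 and Camk2a. The 8 genes of basal forebrain cholinergic neurons went the other way, with 7, 8, 0 and 7 called higher, and Chat, Slc5a7, Slc18a3, Ngfr, Lhx8 and Gbx1 among those called in both sexes without nicotine. Their sum was 22.2 to 82.4 CPM in female air libraries, 86.0 to 199 with nicotine and 112 to 293 without, and in males 37.6 to 85.1, 97.1 to 146 and 115 to 241 CPM.

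Of 8 myelin genes 8, 7, 0 and 8 were called higher, with a summed level of 8230 to 9913 CPM in female air, 13523 to 17217 with nicotine and 11085 to 16606 without, and of 9452 to 11563, 9702 to 15046 and 13769 to 23579 CPM in males. Those called in both sexes without nicotine included Mbp, Mobp, Mog, Mag, Cnp and Cldn11. The list of septum, hypothalamus and preoptic area (9 of 13 tested) had 2, 3, 0 and 4 called higher and none lower, with Gal, Dlk1 and Zic1 called in both sexes without nicotine, and the thalamus list (8 genes) 3, 4, 0 and 2 higher and none lower, with Tcf7l2 and Gbx2. The 12 genes listed for cortical interneurons were called in both directions, 1, 4, 0 and 2 higher and 1, 3, 0 and 3 lower. Gad2 and Lhx6 were called higher and Vip and Cck lower in both sexes without nicotine. Which cells these transcripts came from was not tested. For the olfactory bulb (6 genes, 5 tested in females) 0, 1, 0 and 0 were called higher and none lower. For choroid plexus (6 genes) 0, 0, 0 and 2 were called higher and none lower.

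Midbrain dopamine neurons, whose axons supply the striatum, showed few transcripts of their defining genes. The gene of the dopamine transporter, Slc6a3, had a median of 0.720 to 1.52 CPM over the 6 groups and reached 9.82 CPM in 1 female air library, Pitx3 gave at most 5 counts in a library and En1 at most 10, and Foxa1 was at 0 in all 5 female no nicotine libraries and gave at most 4 counts elsewhere. Of the 8 genes of the list, 5 were tested and none was called higher, while Nr4a2, which cortical neurons also express, was called lower in both sexes without nicotine.

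**Figure D4:**
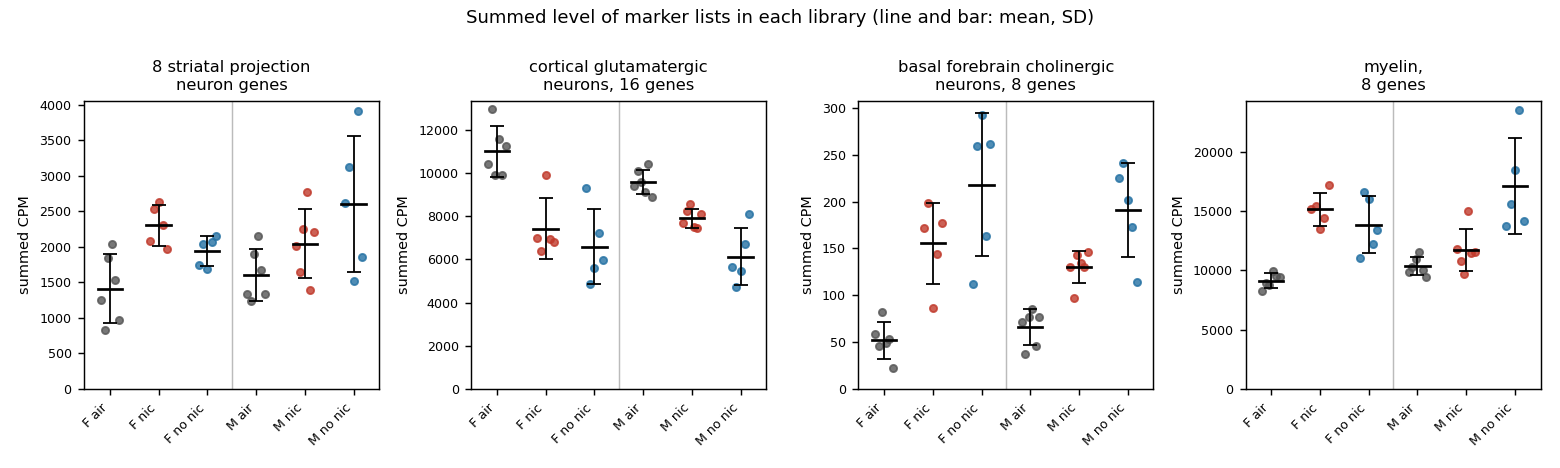
Summed CPM of the 8 striatal projection neuron genes and of 3 marker lists in each library, 1 point per library, with the group mean and a bar of 1 SD. Cholinergic sums are above air in all exposed groups, myelin sums are too except that males with nicotine overlap air, and the striatal genes spread widely within groups.

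Within the female air group the libraries had a different order by cholinergic sum than by striatal genes. Female air replicates 2 and 4, whose 8 striatal projection neuron genes summed to 823 and 2036 CPM, had cholinergic sums of 45.7 and 49.2 CPM, myelin sums of 8919 and 9913 CPM and glutamatergic sums of 12952 and 11558 CPM. Replicates 6 and 3, next to those ends with 966 and 1851 CPM, had the lowest and the highest cholinergic sum of the group, 22.2 and 82.4 CPM. In the male air group replicate 37 had the highest sums of the 8 genes (2157 CPM), of cholinergic (85.1 CPM) and of myelin genes (11563 CPM). Among male no nicotine libraries, replicate 5 had the highest sums of the 8 genes (3908 CPM) and of myelin (23579 CPM), whereas replicate 4 had the lowest sum of the 8 genes (1524 CPM) beside the next highest myelin sum (18473 CPM). The part of these other cell types and regions in the differences between groups was not tested.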

How the data were processed

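RNA-Seq of frontal cortex from 33 offspring was analysed. The authors mapped single reads to the mm9 mouse transcriptome with Bowtie, removed PCR duplicates with SAMtools and counted reads per gene with HTSeq, and they deposited raw read counts in 1 table per sex. Of the count columns, 1 could not be matched to a labelled sample and was not used, nor were the authors' normalized tables. Each sex was fitted alone (and both together for the sex difference), with its 3 groups in 1 edgeR 4.0.16 quasi-likelihood model without covariates, after TMM scaling and a filter of 5 CPM summed over libraries, which removed at most 0.0341% of the counts of a library. The threshold for a call was 0.01 on p-values adjusted by Benjamini-Hochberg over all genes of the fit. CPM values are TMM scaled, and log2 CPM used a prior count of 1. The script was tested on simulated data. No library pair of a group agreed within sampling noise (chi-square per degree of freedom of 4.46 to 30.9 over 75 pairs).

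Exon lengths and positions came from GENCODE on NCBIM37, the same assembly as mm9, and promoter sequences from RefSeq on GRCm38.p6. The 8 genes and the gene lists were chosen with earlier results of these data known, and no list was given a test. Named genes are the 8 genes, the other dopamine receptors, the 8 genes of most similar pattern, list genes called in both sexes without nicotine, and list genes at 0 counts. A few genes that this rule names are not reported here. Alternatives were DESeq2 1.42.0, DESeq2 size factors and upper quartile scaling in edgeR, no filter, a filter of 1 CPM in 5 libraries, fits of only the 2 groups compared, each library left out and, in females, the replicate number as a block. Figures and summaries were made with R 4.3.3, Python 3.11.15, pandas 2.3.3 and matplotlib 3.10.9.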

Additional observations from a re-analysis of the deposited data

Results flagged for a closer look

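Pdyn in male air replicate 37 had 33.04 CPM, while the next highest of the 6 male air libraries had 21.6 CPM. The gap was 0.726 of the range of the group, above Dixon's 95% critical value of 0.625 for 6 samples. It was the only value of 48 combinations of gene and group to do so, and chance flags about 1 in 20 groups. The same library was the highest of the male air group for the other 7 striatal projection neuron genes as well. Without it the log2 fold change of Pdyn against air was 0.87 in males without nicotine (0.72 with it) and 0.46 in males with nicotine (0.30 with it).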

How the results depend on the processing

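Of the 8 genes, the number called was the same as in the report under both other scalings and both other filters. Penk was added by DESeq2 to the calls with nicotine in females (4 genes) and to those without nicotine in males (4 genes). Fits of only the 2 groups compared left 1 gene called in females with nicotine, where Ppp1r1b and Rgs9 had an adjusted p of 0.0192 and 0.0185, and 0 in females without nicotine, where Tac1 had 0.0148. Leaving out each library in turn gave 0 to 6 genes called in females with nicotine, 0 to 1 in females without and 1 to 6 in males without. With nicotine in females it was 0 without air replicate 2, 5 or 6 or nicotine replicate 1, 2 or 6, 1 without air replicate 1, nicotine replicate 3 or 5 or no nicotine replicate 3, 4 or 5, and 6 without air replicate 4. Without nicotine in females it was 0 without air replicate 1, 2, 5 or 6 or no nicotine replicate 2, 4 or 5. In males without nicotine it was 1 without air replicate 30, 31, 33, 38 or 39, nicotine replicate 15 or 22 or no nicotine replicate 2 or 3, and 6 without no nicotine replicate 4. The cause of these losses, beyond the smaller number of libraries, was not tested. In the other comparisons 0 of the 8 genes were called under every alternative run.

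With the replicate block, 1 gene was called in females with nicotine (Ppp1r1b, while Tac1 had an adjusted p of 0.0142 and Rgs9 0.0140) and 0 in females without (Tac1 0.0211). Over all genes it called 136 and 736, against 651 and 1829 without the block. A check gave no sign that the female numbers pair the libraries. Of 14 pairs with the same number, 4 had a correlation of deviations over 0.1 (range -0.27 to 0.27, median 0.01, against 0.00 for other pairs). Other pairs ran from -0.40 to 0.48, so a weaker shared effect could not be seen and pairing is not excluded. The male groups share no numbers.

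No log2 fold change against air turned its sign. Signs turned for Pde10a between nicotine and no nicotine in males (0.0249 without no nicotine replicate 5, range -0.379 to 0.0249) and for the sex difference without nicotine of Penk (0.00175 without male air 31, 0.0119 and 0.0577 without male no nicotine 3 and 5, 0.0392 and 0.0719 without female air 3 and 4, range -0.195 to 0.0719) and Tac1 (0.00679 without male air 30, 0.121 without male no nicotine 3, 0.0862 without female air 3, 0.0244 and 0.00763 without female no nicotine 1 and 3, range -0.169 to 0.121), none of them called. Log2 fold changes against air that moved by over 1.5 times without 1 library belonged to genes not called there. In males with nicotine Pdyn, Adora2a and Rgs9 were 0.14, 0.27 and 0.20 without nicotine replicate 19, and Pdyn was 0.46 without air replicate 37. In females without nicotine Pde10a was 0.10, 0.36 and 0.13 without air replicates 2, 4 and 6, and in males without nicotine Pde10a and Ppp1r1b were 0.30 and 0.49 without no nicotine replicate 5. The differences between the aerosols in males and between the sexes also moved by over 1.5 times without single libraries, and none was called in any of these fits.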
